A study of Mus musculus with 6 samples.

Results

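The mitochondrial ribosome is built from nuclear-encoded proteins named Mrpl (large subunit) and Mrps (small subunit), and their mRNAs were examined in the anterior prostate (AP) of mice with over-activated Notch1 signaling. The genes were chosen by symbol alone, as every row of the expression tables whose name begins with Mrpl or Mrps followed by a number, which gave 83 of 55076 rows, 51 Mrpl and 32 Mrps. RNA-seq was performed on the whole AP of 6 male mice, all 20 weeks old. The 3 OEx mice carried Pbsn-Cre and 1 Rosa26 N1ICD allele, so that the probasin promoter drove Cre, and with it the intracellular domain of Notch1, in prostate epithelium. The 3 Ctrl mice are labelled wild type, and by the study's methods carried the same Rosa26 N1ICD/+ allele without Cre, so the comparison changes both Cre and the overexpressed domain. Each library comes from 1 mouse, and stroma and vessels remain in the whole tissue.

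Mitochondrial ribosomes sit in the mitochondrial matrix and translate the mRNAs of mitochondrial DNA, all of which encode subunits of the oxidative phosphorylation complexes. The small subunit decodes the mRNA, and the large subunit forms the peptide bonds and feeds the new chain toward the inner membrane. Part of the proteins have homologues in bacterial ribosomes and part exist only in mitochondria. The symbols do not follow the structure throughout: Mrps18a and Mrps30 belong to the large subunit, and Mrps36 is now assigned to the alpha-ketoglutarate dehydrogenase complex of the citric acid cycle.

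Expression was given as FPKM, the fragments on a gene per kilobase of its exons, divided by a scale for each library that is described below. Fold changes are OEx against Ctrl on the log2(FPKM + 1) scale, given with their SE, and understate the change of weakly expressed genes. They come from limma on the 12833 rows that averaged 1 FPKM or more over the 6 mice. The study's criteria were applied, so that a gene counted as called when its Benjamini-Hochberg adjusted p (FDR) was under 0.05 and its change exceeded 2-fold. Over all tested genes, 15.7% were called lower and 12.9% higher, and the median log2 fold change was -0.078.

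Recovered depth ran from 14762182 to 18650962 reads per mouse. Notch1 checked the labels: the OEx mice had 41.9, 47.6 and 78.9 FPKM, against 5.18, 5.55 and 3.34 FPKM for Ctrl. Ctrl replicate 3 stood apart: the summed level of 8 seminal vesicle genes was 16128 FPKM in it, against 4.36 and 2.74 FPKM in the other Ctrl mice and at most 1.18 FPKM in OEx. Marker lists of the tissue's cell types also differed. The 5 luminal epithelial markers summed to between 2904 and 5801 FPKM in OEx and between 16945 and 20862 FPKM in Ctrl. Of these 5, 3 were called lower. In the OEx mice most of this sum was Pbsn, whose levels are given below. All 3 basal markers were called lower (3.72 to 5.32 against 99.4 to 122 FPKM). Smooth muscle and fibroblast markers were summed together, to between 302 and 543 against 822 and 1690 FPKM. The 3 of these 6 that were called lower were all of smooth muscle. This sum hides opposite directions. The fibroblast genes Col1a1 (log2 fold change 1.29 ± 0.94) and Col3a1 (1.57 ± 1.11) were higher on average in OEx, without being called. Vim stood at -0.89 ± 0.54 and was not called either. Endothelial markers summed to between 4.99 and 6.05 against 10.8 and 14.6 FPKM, and leukocyte markers to between 3.11 and 13.0 against 3.39 and 7.81 FPKM. OEx replicate 3 also stood apart: Col1a1 and Col3a1, collagen genes of fibroblasts, were at 6.04 and 3.67 FPKM in it, against 75.4 to 84.1 FPKM in the other OEx mice and 7.95 to 18.9 FPKM in Ctrl, and its level of Pbsn was 4497 FPKM against 2064 and 1795 FPKM in the other OEx mice. None of these markers was at 0 in all mice, and their part in the results below was not tested. In whole tissue, fewer cells of a type and less RNA per cell cannot be told apart.

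The upstream sequences of 5 genes are shown because they carry a feature that the choice of genes did not use, the core of ETS family transcription factor sites (CCGGAAG, or CTTCCGG on the other strand). Of the 78 protein-coding genes, 69 had a promoter in the RefSeq table of GRCm38.p6, 75 promoters in all, each reaching from 250 bases before the start site to 50 bases after it. The core stood in 26 of the 75 (34.7%), against 8.86% of all promoters in the table and 17.8% of the promoters of tested genes. Each line gives the 100 bases before the start site, 5′ to 3′ on the gene's strand, with the core in capitals, and none of these bases lies in an annotated exon. Of 21 promoters with such a stretch at the annotated start of their gene, these are the 5 in which an ETS, NRF1 or YY1 core stood. Mrpl43 (chr19:45006443-45006542, minus strand), Mrpl58 (chr11:115403652-115403751, plus), Mrpl34 (chr8:71464826-71464925, plus) and Mrpl52 (chr14:54426809-54426908, plus) were called lower in OEx, and Mrps22 (chr9:98601680-98601779, minus) was not.
Mrpl43: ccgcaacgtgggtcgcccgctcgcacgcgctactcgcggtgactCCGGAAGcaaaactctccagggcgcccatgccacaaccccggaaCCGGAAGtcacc
Mrpl58: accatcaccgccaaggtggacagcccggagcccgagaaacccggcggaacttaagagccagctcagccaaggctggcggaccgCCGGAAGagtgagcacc
Mrpl34: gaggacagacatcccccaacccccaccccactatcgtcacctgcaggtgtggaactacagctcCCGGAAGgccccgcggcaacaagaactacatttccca
Mrpl52: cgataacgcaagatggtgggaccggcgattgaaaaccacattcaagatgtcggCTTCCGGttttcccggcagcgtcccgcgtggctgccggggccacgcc
Mrps22: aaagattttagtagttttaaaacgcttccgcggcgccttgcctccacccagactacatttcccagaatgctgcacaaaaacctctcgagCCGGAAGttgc

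In Mrpl43 the cores began 56 and 12 bases before the start site, and in the other genes they began 17 (Mrpl58), 37 (Mrpl34), 47 (Mrpl52) and 11 bases before it (Mrps22). The core was present in 16 of 41 promoters of genes called lower (39.0%) and in 9 of 33 of genes tested and not called (27.3%). The core of YY1 sites, ATGGCGG, was in 13 of the 75 promoters (17.3%), against 4.05% of all promoters and 8.13% of those of tested genes, with 2 of 41 among genes called lower and 10 of 33 among those not called. NRF1 is a regulator of nuclear genes for mitochondrial proteins, and the core letters searched for it, GCATGCG, were in 8 of 75 (10.7%), against 3.58% of all promoters and 6.26% of those of tested genes, with 2 of 41 among genes called lower and 6 of 33 among those not called. The GC box letters GGGCGG were in 39 of 75 (52.0%), above the 35.7% of all promoters and below the 63.6% of those of tested genes, with 26 of 41 and 13 of 33. The letters CCAAT were in 30 of 75 (40.0%), against 37.4% of all promoters and 37.3% of those of tested genes, with 14 of 41 and 15 of 33. TGGGAA, the core bound by the Notch effector RBPJ, stood in 20 of 75 (26.7%), against 25.6% of all promoters and 23.02% of those of tested genes, with 7 of 41 among genes called lower and 13 of 33 among those not called. All motifs were searched on both strands, and the matches describe letters in the window and say nothing of binding.

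Of the 83 genes, 79 passed the filter on low values, 50 Mrpl and 29 Mrps, with between 10 and 2348 recovered reads per mouse. Of the 4 that did not, Mrpl53 was listed at 0 FPKM in all 6 mice, with 695 of its 790 exon bases shared with another gene on the same strand, Gm42688. The others were the pseudogenes Mrps36-ps1, Mrps36-ps2 and Mrps36-ps3. Mrps36-ps2 came closest to passing, at 1.298, 0.425 and 1.97 FPKM in OEx and 0.259, 0.9999 and 0.426 FPKM in Ctrl, and Mrps22 was the lowest coding gene to pass, with a mean of 1.86 FPKM over the 6 mice. Among those that passed were the pseudogenes Mrpl23-ps1, of whose 50-base windows 92.5% also occur in another gene, and Mrpl48-ps (44.6%), so their reads cannot be separated with certainty from those of Mrpl23 and Mrpl48.

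Mrpl and Mrps genes were both mostly lower in OEx mice on the deposited scale. Of the 50 Mrpl genes, 26 were called lower (52.0%, against 15.7% of all tested genes), and their median log2 fold change was -1.02, within a range from -1.93 to 0.53. Of the 29 Mrps genes, 13 were called lower (44.8%), with a median of -0.85 and a range from -1.94 to 0.43. No gene of either subunit was called higher in the limma fit, where 2 Mrpl and 2 Mrps genes were higher at an unadjusted p under 0.05, and limma-voom on recovered reads also called 0 higher. The fold change was below 0 for 47 of the 50 Mrpl and 25 of the 29 Mrps genes (53.1% of all tested genes). At FDR under 0.05 alone, 44 Mrpl and 21 Mrps genes were lower (36.5% of all tested genes were), and 2 of each were higher (30.7%). The values of the 3 OEx mice all lay below those of the 3 Ctrl mice for 46 of 50 Mrpl and 22 of 29 Mrps genes (38.9% of all tested genes), and all above for 2 and 3 (33.4%). Without Ctrl replicate 3, 26 Mrpl and 12 Mrps genes were called lower, with medians of -1.04 and -0.83, and without OEx replicate 3, 27 and 13 were, with medians of -1.03 and -0.90. No test of a list was made.

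**Figure D1:**
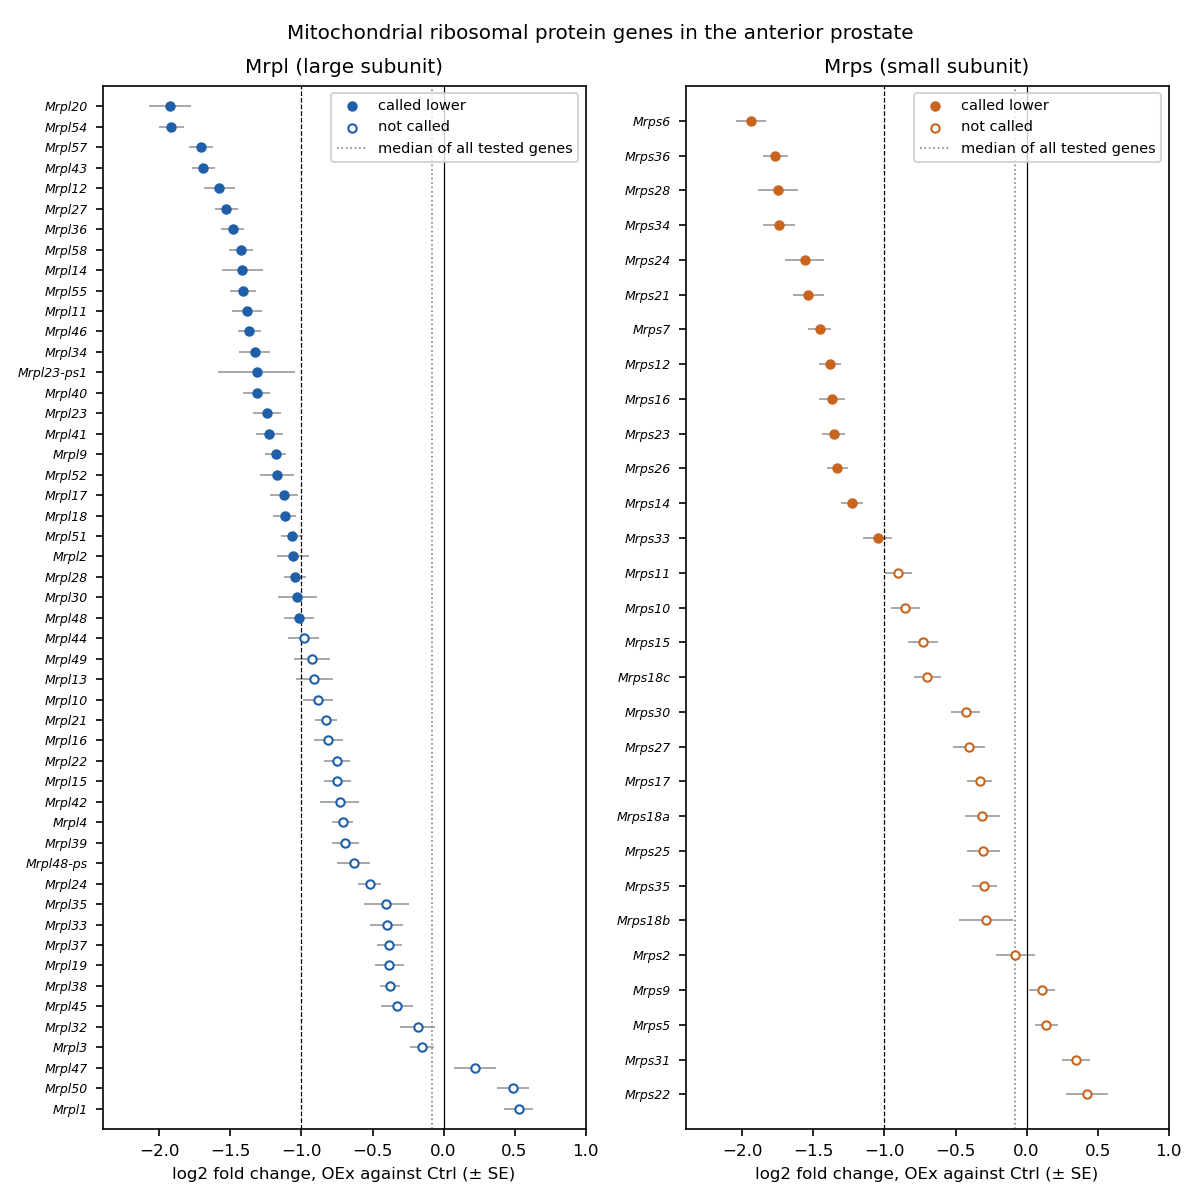
Log2 fold change of each tested Mrpl (left) and Mrps gene (right), OEx against Ctrl, with its SE. Filled points were called lower, the dashed line marks a 2-fold fall and the dotted line the median of all tested genes (-0.078). The Mrpl genes run from -1.93 to 0.53 and the Mrps genes from -1.94 to 0.43.

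These counts depended on the scale on which mice were compared. The denominators behind the deposited FPKM values were 1.22 to 1.35 times the recovered reads of each OEx mouse and 0.726 to 0.815 times those of each Ctrl mouse, and lay within 0.358% of median-of-ratios size factors. With library totals as the scale, the median of all tested genes moved to 0.65, 2 Mrpl and 1 Mrps genes were called lower, 2 of each were called higher (Mrpl1, Mrpl50, Mrps22 and Mrps31), and the medians were -0.17 for Mrpl and -0.10 for Mrps. Over all tested genes, 504 were then called lower and 4458 higher, against 2021 and 1653 on the deposited scale. Relative to the median of all tested genes, the lists stood at -0.95 and -0.77 on the deposited scale and at -0.83 and -0.76 with library totals. The genes called lower with library totals were Mrpl20 (-1.06), Mrpl54 (-1.03) and Mrps6 (-1.07). The share of each mouse's recovered reads is likewise a scaling to library totals. By this share the 83 genes took 0.280%, 0.280% and 0.259% in the OEx mice. In the Ctrl mice they took 0.319%, 0.314% and 0.377%, and the groups did not overlap.

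Summed levels were then compared between the subunits. For Mrpl the sums were 692, 697 and 693 FPKM in OEx and 1576, 1567 and 1700 FPKM in Ctrl, on average 2.33-fold higher in Ctrl. For Mrps they were 321, 329.6 and 337 FPKM in OEx and 819.9, 787 and 867 FPKM in Ctrl, 2.51-fold higher in Ctrl. The ratio of the Mrpl to the Mrps sum, which does not depend on the scale between mice, was 2.16, 2.11 and 2.06 in the OEx mice (2.11 ± 0.05, SD, n = 3) and 1.92, 1.99 and 1.96 in the Ctrl mice (1.96 ± 0.03, SD, n = 3). The groups did not overlap in this ratio, which was 1.08 times as high in OEx. The ratio of the median Mrpl to the median Mrps level went the same way, at 1.57, 1.55 and 1.54 in OEx and 1.35, 1.33 and 1.28 in Ctrl. Changes taken gene by gene gave the other order. Taking each gene's log2 level relative to its mean over the 6 mice, the Mrpl median minus the Mrps median was -0.056, -0.0019 and -0.14 in the OEx mice and 0.053, 0.18 and 0.063 in the Ctrl mice. The difference between the 2 medians of fold changes was -0.17, and it turned to 0.11 after a correction for GC content and exon length and to 0.16 among genes averaging 5 FPKM or more. The direction of the difference between subunits thus changed with the measure, and genes are not replicates, so no test was made.

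**Figure D2:**
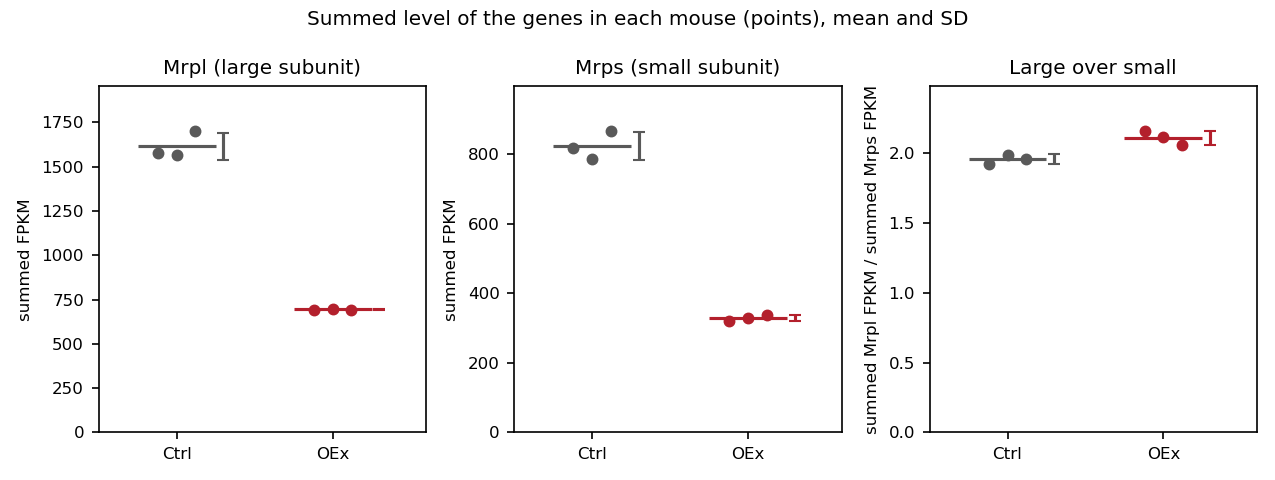
Summed FPKM of the Mrpl genes, of the Mrps genes, and the ratio of these sums, in each mouse (points), with the mean (line) and SD of 3 mice per group. Sums in OEx (at most 697 and 337 FPKM) lie below all Ctrl sums (at least 1567 and 787 FPKM), and the ratio is between 2.06 and 2.16 in OEx and between 1.92 and 1.99 in Ctrl.

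Genes were also grouped by place in the ribosome instead of by symbol, to be read beside the 15.7% of all tested genes called lower. Of 50 tested large subunit genes by place, 25 were called lower with a median of -1.002, and of 26 small subunit genes 12 were, with a median of -0.88. Among large subunit genes, 15 of 30 with bacterial homologues (median -0.97) and 10 of 19 mitochondria-specific genes (median -1.02) were called lower. In the small subunit, 8 of 15 with bacterial homologues (median -1.23) and 4 of 9 mitochondria-specific genes (median -0.41) were. Of the 10 genes for the central protuberance, the crown of the large subunit facing the small one, 7 were called lower (median -1.22), and of the 8 around the exit of the peptide tunnel 2 were (median -0.72). These groups are small and differ in exon length, and their differences were not tested.

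Among the large subunit genes, the largest fall was that of Mrpl20, whose bacterial homologue binds the ribosomal RNA early in assembly (GRCm38, chr4:155802878-155809975), at 14.1, 13.6 and 11.4 FPKM in OEx and 47.6, 46.6 and 63.5 FPKM in Ctrl (log2 fold change -1.93 ± 0.15, limma FDR 8.08e-05). Mrpl54, a mitochondria-specific protein (chr10:81264713-81266934), was also the most abundant Mrpl gene in Ctrl mice, at 124, 126 and 139 FPKM, and stood at 33.1, 35.9 and 32.0 FPKM in OEx (-1.92 ± 0.09, FDR 2.53e-05). In both genes the lowest Ctrl mouse was far above the highest OEx mouse. Mrpl57 was at 10.7, 10.4 and 10.9 FPKM in OEx and 40.2, 34.2 and 37.2 FPKM in Ctrl (-1.71 ± 0.09, FDR 2.91e-05). Mrpl43, whose promoter held a pair of ETS cores, was at 28.5, 28.7 and 28.0 FPKM in OEx and 89.4, 90.8 and 102 FPKM in Ctrl (-1.69 ± 0.08, FDR 2.64e-05). A share of Mrpl43 reads may belong to Twnk, the mitochondrial DNA helicase, which covers 507 of its exon bases on the opposite strand, and the strand of the counting is not given in the sources used here. Mrpl27, in the central protuberance, was at 18.2, 16.1 and 17.9 FPKM in OEx and 51.0, 52.4 and 52.8 FPKM in Ctrl (-1.53 ± 0.08, FDR 3.00e-05), with 24.4% of its 50-base windows also found in other genes. No Ctrl value of these genes fell within the OEx range.

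The genes of the stalk, the flexible arm that recruits translation factors, all fell. Mrpl12, its multi-copy tip protein, was at 15.3, 16.4 and 14.1 FPKM in OEx and 46.0, 43.4 and 53.7 FPKM in Ctrl (-1.58 ± 0.11, FDR 5.72e-05). Mrpl11, at the stalk base, was at 8.51, 8.68 and 8.52 FPKM in OEx and 22.2, 22.5 and 27.6 FPKM in Ctrl (-1.38 ± 0.10, FDR 7.64e-05). Mrpl10, which anchors the tip, was at 23.5, 23.1 and 26.3 FPKM in OEx and 48.2, 48.8 and 40.5 FPKM in Ctrl (-0.88 ± 0.10, FDR 0.000419), past the FDR threshold but under 2-fold. With library totals as the scale, Mrpl12 and Mrpl11 stood at -0.71 and -0.54 and Mrpl10 at -0.0060, so that none of the stalk genes passed both criteria.

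Following Mrpl54, the most abundant Mrpl genes in Ctrl mice were Mrpl52 and Mrpl14. Mrpl52 was at 55.2, 53.3 and 48.2 FPKM in OEx and 108, 112 and 138 FPKM in Ctrl (-1.17 ± 0.12, FDR 0.000221). Mrpl14, at the interface with the small subunit, was at 31.2, 35.0 and 42.7 FPKM in OEx and 87.2, 95.7 and 112 FPKM in Ctrl (-1.42 ± 0.15, FDR 0.000238). Both were called lower, and their 3 values did not overlap between groups. Their order in Ctrl was not firm, since the ranges of Mrpl52 and Mrpl54, and of Mrpl52 and Mrpl14, overlapped.

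A few Mrpl genes stood apart from this fall. Mrpl1, the protein of the mobile arm through which spent tRNAs leave (chr5:96209493-96266727), was at 3.59, 3.47 and 4.04 FPKM in OEx and 2.27, 2.03 and 2.48 FPKM in Ctrl (0.53 ± 0.10, FDR 0.00397). Mrpl50, a mitochondria-specific protein, was at 14.3, 12.6 and 13.1 FPKM in OEx and 8.13, 8.95 and 10.6 FPKM in Ctrl (0.49 ± 0.11, FDR 0.00813). Both were higher in every OEx mouse and past the FDR threshold but under 2-fold, and Mrpl1 turned to -0.035 after the GC and length correction. Mrpl47, at the tunnel exit, was at 2.38, 2.32 and 2.28 FPKM in OEx and 1.43, 1.78 and 2.46 FPKM in Ctrl (0.22 ± 0.15, FDR 0.229), and turned to -0.027 with that correction. Mrpl3, a core protein near the catalytic centre, was at 4.30, 4.19 and 4.28 FPKM in OEx and 5.04, 4.92 and 4.56 FPKM in Ctrl (-0.15 ± 0.08, FDR 0.147) and turned to 0.59 with library totals. Neither Mrpl47 nor Mrpl3 passed the test. Mrpl1, Mrpl47 and Mrpl19 were also the least abundant of the tested Mrpl genes in Ctrl. Mrpl19 was at 2.07, 2.02 and 1.88 FPKM in OEx and 2.79, 3.23 and 2.68 FPKM in Ctrl (-0.38 ± 0.10, FDR 0.0152), turned to 0.26 with library totals, and shares 1962 exon bases with Gcfc2 on the opposite strand.

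In the small subunit, Mrps6 fell the most (chr16:92058270-92112227), from 59.4, 51.2 and 54.0 FPKM in Ctrl to 13.3, 12.3 and 15.2 FPKM in OEx (-1.94 ± 0.11, FDR 3.35e-05). A predicted gene on the same strand, Gm49711, covers 305 of its exon bases. Mrps28 was at 24.97, 27.3 and 30.6 FPKM in OEx and 85.5, 87.1 and 115 FPKM in Ctrl (-1.75 ± 0.14, FDR 9.80e-05). Mrps34, a mitochondria-specific protein needed for a stable small subunit, was at 12.02, 10.97 and 12.7 FPKM in OEx and 48.5, 40.5 and 38.0 FPKM in Ctrl (-1.74 ± 0.11, FDR 5.05e-05), but 63.4% of its exon bases also lie in Mapk8ip3 on the opposite strand. In all of these genes the OEx and Ctrl values were far apart. Mrps24 was at 27.0, 31.8 and 28.5 FPKM in OEx and 87.2, 74.9 and 103 FPKM in Ctrl (-1.56 ± 0.13, FDR 0.000119). Mrps21, the most abundant Mrps gene in Ctrl, was at 40.7, 45.8 and 38.6 FPKM in OEx and 113, 119 and 137 FPKM in Ctrl (-1.54 ± 0.11, FDR 6.52e-05). Mrps21, Mrps28 and Mrps24 were the 3 most abundant in Ctrl, and there the values of Mrps28 overlapped those of both Mrps21 and Mrps24.

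Other Mrps genes were higher in OEx or did not pass the test. Mrps22, a mitochondria-specific protein (chr9:98588730-98601660), was at 2.40, 2.26 and 2.14 FPKM in OEx and 1.16, 1.24 and 1.95 FPKM in Ctrl (0.43 ± 0.15, FDR 0.0384). Mrps31, also mitochondria-specific, was at 3.99, 3.63 and 4.31 FPKM in OEx and 2.91, 3.05 and 2.74 FPKM in Ctrl (0.35 ± 0.10, FDR 0.0168). Both were higher in every OEx mouse and passed the FDR threshold, but not the fold criterion. Mrps5, which lines the mRNA entry, was at 7.14, 6.89 and 7.30 FPKM in OEx and 6.71, 6.41 and 6.01 FPKM in Ctrl (0.14 ± 0.08, FDR 0.176). Mrps9, whose bacterial homologue reaches the tRNA in the P site, was at 5.18, 4.65 and 5.29 FPKM in OEx and 4.84, 4.29 and 4.65 FPKM in Ctrl (0.11 ± 0.09, FDR 0.315). Neither passed the test, and with the GC and length correction they stood at -0.094 and -0.75. Mrps25 was among the least abundant with Mrps22 and Mrps31, at 2.59, 3.10 and 2.22 FPKM in OEx and 3.42, 3.38 and 3.63 FPKM in Ctrl (-0.31 ± 0.12, FDR 0.0532), and 69.8% of its exon bases lie in Nr2c2 on the opposite strand.

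**Figure D3:**
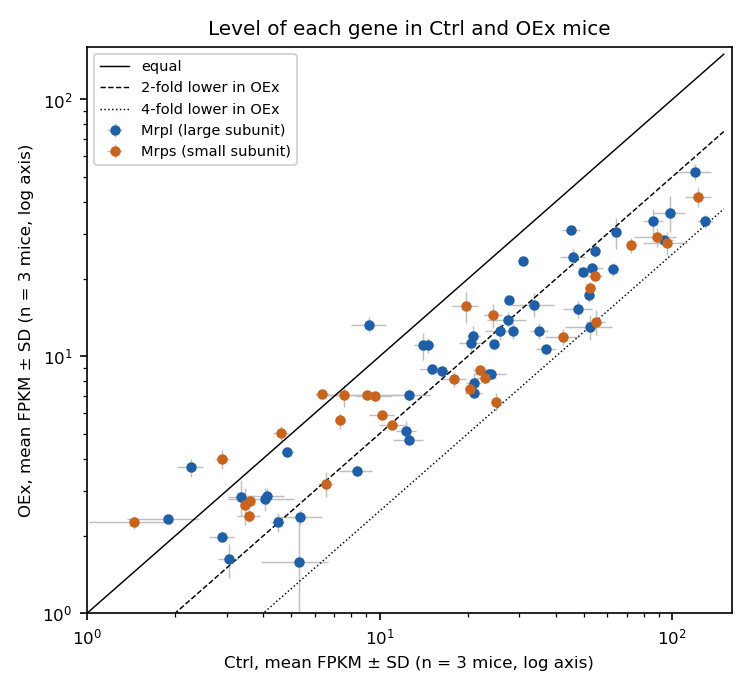
Mean FPKM of each tested gene in Ctrl (horizontal) and OEx mice (vertical), with the SD of 3 mice, on log axes. The solid, dashed and dotted lines mark equal levels and falls of 2-fold and 4-fold, and Mrpl54, the highest in Ctrl at 129.7 FPKM, lies close to the dotted line.

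The genes whose symbols and places differ were looked at one by one. Mrps36, the dehydrogenase subunit, was at 6.69, 7.17 and 6.09 FPKM in OEx and 24.0, 26.1 and 25.1 FPKM in Ctrl (-1.77 ± 0.09, FDR 2.73e-05), and shares 17.3% of its 50-base windows with other genes, its pseudogenes among them. Mrps30, a large subunit protein, was at 2.53, 2.26 and 2.40 FPKM in OEx and 3.85, 3.23 and 3.66 FPKM in Ctrl (-0.43 ± 0.10, FDR 0.00800), and moved to -1.22 with the GC and length correction and to 0.24 with library totals. The other large subunit protein with an Mrps name, Mrps18a, was at 14.7, 14.2 and 18.1 FPKM in OEx and 21.6, 19.8 and 17.7 FPKM in Ctrl (-0.31 ± 0.12, FDR 0.0591). The highest OEx mouse lay above the lowest Ctrl mouse for Mrps18a. Its paralogues sit in the small subunit: Mrps18b was at 7.08, 7.33 and 6.76 FPKM in OEx and 11.6, 9.24 and 6.39 FPKM in Ctrl (-0.29 ± 0.19, FDR 0.216). Mrps18c was at 6.06, 5.65 and 6.02 FPKM in OEx and 10.2, 9.26 and 11.3 FPKM in Ctrl (-0.70 ± 0.10, FDR 0.000777). Mrps18c alone of these paralogues passed the FDR threshold, but 23.2% of its exon bases also lie in Gm43511 on the same strand. Of the Mrps18b exon bases, 30.5% lie in Gm16279 on the opposite strand. With library totals all 3 paralogues turned positive, to 0.54 (Mrps18a), 0.51 (Mrps18b) and 0.10 (Mrps18c).

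One pair of the genes lies head to head on chromosome 7 and shares 173 exon bases on opposite strands, Mrpl46 of the large and Mrps11 of the small subunit, named here for that position after their values were seen. Mrpl46 was at 8.43, 8.81 and 8.46 FPKM in OEx and 22.8, 22.98 and 25.4 FPKM in Ctrl (-1.37 ± 0.08, FDR 3.88e-05). Mrps11 was at 5.42, 5.42 and 5.46 FPKM in OEx and 10.8, 10.1 and 12.3 FPKM in Ctrl (-0.90 ± 0.09, FDR 0.000247). Both passed the FDR threshold, and Mrpl46 also the fold criterion.

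On the deposited scale, the genes of shortest summed exon length had the lowest median fold change in both subunits. After the correction described below, the Mrpl genes over 3000 bases had the lowest median, at -1.06. The corrected Mrpl medians were -0.57 under 1500 bases and -0.40 between 1500 and 3000 bases. For Mrps the corrected medians were -0.83 under 1500 bases, -0.71 between 1500 and 3000 bases and -0.75 over 3000 bases. Among genes with under 1500 exon bases, 13 of 15 Mrpl and 5 of 6 Mrps genes were called lower, against 28.2% of all tested genes of that length. Between 1500 and 3000 bases, 6 of 16 Mrpl and 6 of 11 Mrps genes were (25.3% of all tested genes). Above 3000 bases, 7 of 19 Mrpl and 2 of 12 Mrps genes were (8.60%). Across the 79 genes the log2 fold change correlated with log2 exon length with a Spearman rho of 0.56 and with GC content with a rho of -0.43, against 0.28 and -0.37 over all tested genes with an annotated length. With the mean level over the 6 mice the rho was -0.71, against -0.36. These correlations are across genes of the same 6 libraries, and the length also enters the FPKM value. The 1 FPKM added before taking logs pulls the fold change of weakly expressed genes toward 0, so the level enters it too. After the correction for GC content and exon length, 15 Mrpl and 9 Mrps genes were called lower (9.93% of all tested genes), and the median of the genes over 3000 bases went from -0.40 to -0.84 while that of the genes under 1500 bases went from -1.37 to -0.61.

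**Figure D4:**
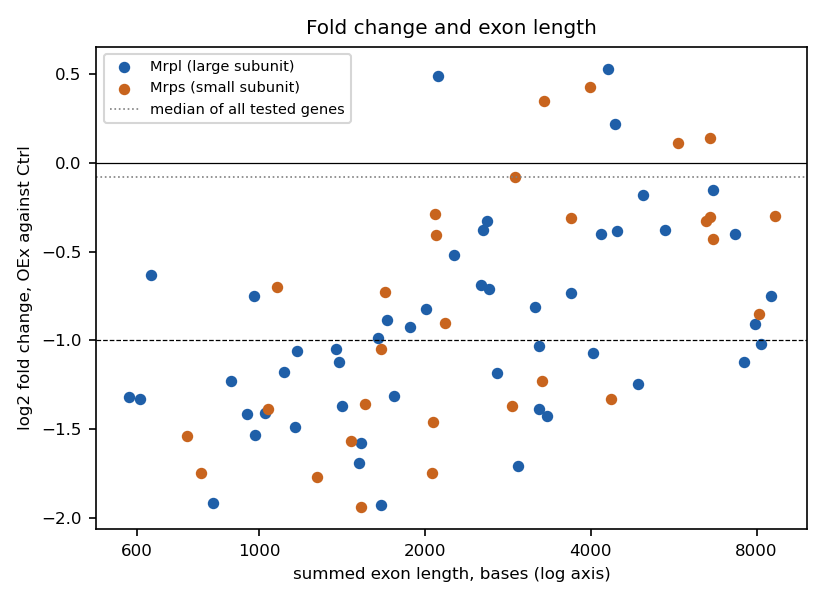
Log2 fold change of each tested gene, OEx against Ctrl, by its summed exon length (log axis), Mrpl in blue and Mrps in orange. The dashed line marks a 2-fold fall and the dotted line the median of all tested genes, and 18 of the 21 genes under 1500 bases were called lower, against 9 of the 31 over 3000 bases.

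Other genes of mitochondrial translation included some called lower (15.7% of all tested genes) and some called higher (12.9%). Of the 5 mitoribosomal proteins without an Mrp symbol, 3 were called lower: Aurkaip1, a small subunit protein, went from a mean of 99.6 ± 14.9 FPKM in Ctrl to 32.8 ± 1.24 FPKM in OEx (SD, n = 3; log2 fold change -1.57). Chchd1, of the small subunit, and Gadd45gip1, of the large one, stood at -1.54 and -1.51. Ptcd3, a small subunit protein of the pentatricopeptide repeat family, was called higher, at 4.62, 4.61 and 4.83 FPKM in OEx and 1.81, 1.40 and 1.89 FPKM in Ctrl (1.08 ± 0.11, FDR 0.000205). The ribosomal RNAs transcribed from mitochondrial DNA were both called lower. Their median level in Ctrl was 171.6 FPKM, below the 643.5 FPKM of the mRNAs of mitochondrial DNA. How fully the libraries captured these ribosomal RNAs was not tested. The small subunit RNA mt-Rnr1 was at 69.9, 65.5 and 53.8 FPKM in OEx and 142, 142 and 219 FPKM in Ctrl (-1.38 ± 0.20, FDR 0.000972). The large subunit RNA mt-Rnr2 was at 55.3, 56.0 and 49.8 FPKM in OEx and 135, 129 and 262 FPKM in Ctrl (-1.61 ± 0.27, FDR 0.00193). Ctrl replicate 3 was the highest in both RNAs, and the groups did not overlap.

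The factors that act on the ribosome are listed next. Of 15 tested translation factors, 0 were called lower in the limma fit (4 at an unadjusted p under 0.05, and 15.7% of all tested genes called) and 2 were called higher, near the 12.9% of all tested genes, with a median of 0.087. Mtif2, the initiation factor, was at 8.79, 9.24 and 8.59 FPKM in OEx and 2.71, 1.96 and 2.98 FPKM in Ctrl (1.49 ± 0.13, FDR 0.000120). Guf1, a GTPase of elongation, was at 3.84, 3.99 and 4.09 FPKM in OEx and 0.709, 0.722 and 0.926 FPKM in Ctrl (1.48 ± 0.10, FDR 6.27e-05), and Lrpprc, which stabilises mitochondrial mRNAs, stood at 0.86 and was not called. Of 24 assembly and rRNA modification genes 1 was called lower, with a median of -0.33: Mpv17l2, which takes part in ribosome assembly, went from 98.5, 97.7 and 87.3 FPKM in Ctrl to 23.02, 24.7 and 26.1 FPKM in OEx (-1.90 ± 0.09, FDR 2.64e-05). Without Ctrl replicate 2 or without OEx replicate 1 the count was 2. Malsu1, which keeps immature subunits apart, and Rcc1l, a further assembly factor, stood at -0.96 and -0.90. Of 20 mitochondrial aminoacyl-tRNA synthetases, which charge tRNAs with amino acids, 2 were called lower, under the 15.7% of all tested genes, with a median of -0.041, Lars2 (-2.08) and Fars2 (-1.18), and Mars2 stood at 0.65. The Lars2 values varied widely in Ctrl, at 47.4, 60.8 and 109 FPKM.

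The products and neighbours of the mitochondrial ribosome were set beside it. The counts are to be read beside the 15.7% of all tested genes called lower. Of the 13 proteins encoded in mitochondrial DNA, 1 was called lower (mt-Nd3, -1.21), and their median was -0.029. Of 77 tested nuclear subunits of the respiratory chain, 59 were called lower with a median of -1.31. Cytosolic ribosomal proteins gave 28 of 46 large subunit genes (median -1.09) and 19 of 29 small subunit genes (median -1.07) called lower. These lists are given on the deposited scale alone, and differences between them and the mitochondrial ribosomal protein genes were not tested.

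**Figure D5:**
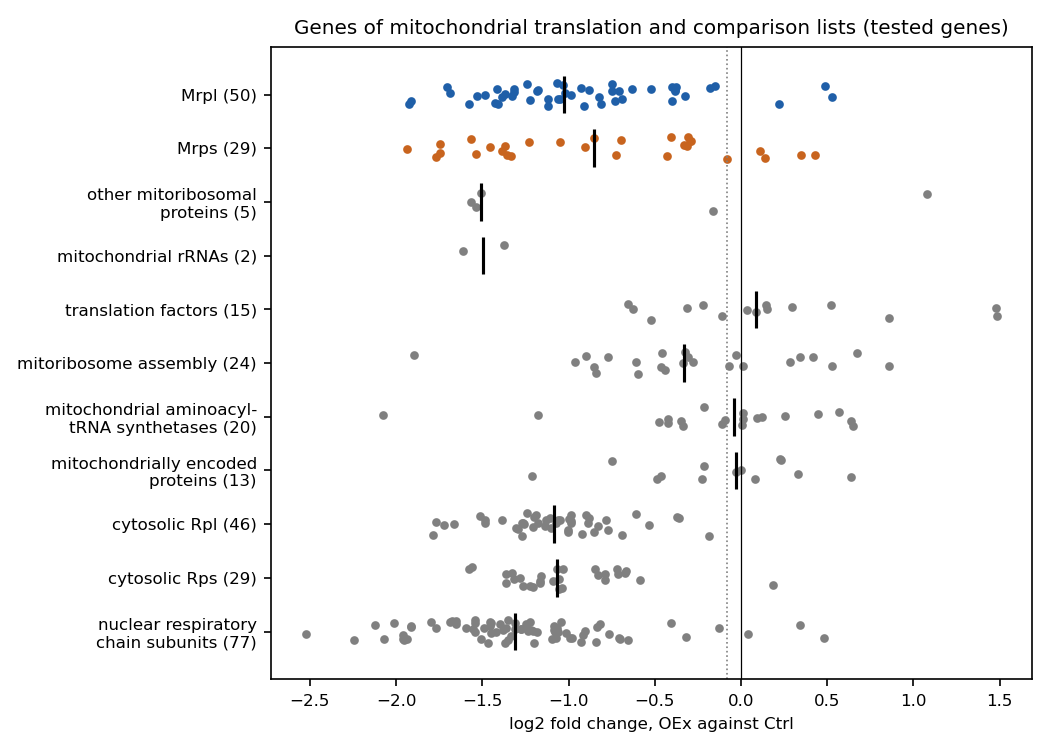
Log2 fold change of the tested genes of each list (points, spread vertically at random), OEx against Ctrl, with the median of the list (black bar) and the number of genes in brackets. The dotted line is the median of all tested genes, and the medians run from -1.51 for the other mitoribosomal proteins to 0.087 for the translation factors.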

How the data were processed

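Total RNA of whole AP from 3 OEx and 3 Ctrl mice was sequenced (TruSeq libraries, Illumina). The authors deposited 1 table of FPKM values per mouse, by gene symbol. The submitters' processing notes name CASAVA, HISAT2 2.0.5, StringTie 1.3.3b and featureCounts 1.5.0-p3, with no role or order. The genome build and strand setting are not given in the sources used here.

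Rows were matched by symbol to GENCODE mouse release 21 (GRCm38), which placed 53636. Reads were recovered from FPKM times exon length with a tolerance of 0.05 reads, and 96.9% to 97.5% of values under 1000 reads came out whole. FPKM values were tested in limma 3.58.1 (R 4.3.3), with an intensity trend, on log2(FPKM + 1). The fit was also run on simulated data with few genes changed, as many up as down, which cannot decide the choice of scale. P-values measure the spread between these mice. The members and lists were chosen with earlier results of these data known. Named genes were the 6 lowest and 4 highest of each subunit by fold change, the 3 most and 3 least abundant in Ctrl, those nearest the filter, the stalk genes, those whose place differs from their symbol with their paralogues, and up to 3 per list. Alternatives covered scaling, filters, pseudocounts, limma-voom, GC and length correction, a replicate block and leaving out each mouse.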

Additional observations from a re-analysis of the deposited data

How the results depend on the processing

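Counts of Mrpl and Mrps genes called lower, 26 and 13 as reported, were between 25 and 27 and between 12 and 13 with 1 mouse left out. The medians then ran from -1.05 to -0.99 for Mrpl and from -0.90 to -0.81 for Mrps, and their difference from -0.24 to -0.13. Of the 39 genes called lower, 35 were also called in all 6 of these fits. Mrpl2 lost its call without OEx replicate 1, Mrpl30 without Ctrl replicate 3 and without OEx replicate 2, and Mrpl48 and Mrps33 without Ctrl replicate 3. The assembly list had 1 or 2 genes called lower. A replicate block gave 26 and 13 and kept all 39 calls. Same-numbered mice did not deviate together (correlations -0.19, -0.19 and -0.31). With 3 mice per group, these correlations cannot decide whether the numbers pair the mice.

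Library totals gave 2 and 1 genes called lower, medians of -0.17 and -0.10 and a difference of -0.070, with 0 of the other mitoribosomal proteins and 1 synthetase called lower. Totals without the 20 most abundant genes gave 4 and 4, medians of -0.40 and -0.32 and a difference of -0.088 (717 of all tested genes lower and 3477 higher). Upper-quartile scaling gave 15 Mrpl genes and medians of -0.77 and -0.62 (1326 lower and 2341 higher). Correction for GC content and exon length gave 15 Mrpl genes, medians of -0.64 and -0.76 and a reversed difference of 0.11. The medians and the difference are bound to be the same with the replicate block, as each number occurs once per group. The difference also reversed, to 0.16, at a mean of at least 5 FPKM (medians -1.12 and -1.28). Limma-voom gave a Mrpl median of -0.97 and a difference of -0.057. A pseudocount of 0.1 gave -1.08, -1.01 and -0.072, and no filter a Mrps median of -0.73 and a difference of -0.30. FDR alone gave 44 and 21 genes.

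Of the 79 tested genes, 25 turned from below to above 0 with library totals, 17 with totals less the 20 most abundant genes and 3 with upper-quartile scaling, and with the GC and length correction 7 turned above and 4 below 0. Among the genes named by rule, with library totals Mrpl19 stood at 0.26, Mrpl3 at 0.59, Mrps18a at 0.54, Mrps18b at 0.51, Mrps18c at 0.10, Mrps25 at 0.37 and Mrps30 at 0.24. With totals less the 20 most abundant genes, Mrpl19 stood at 0.083, Mrpl3 at 0.39, Mrps18a at 0.31, Mrps18b at 0.29, Mrps25 at 0.19 and Mrps30 at 0.061, and with upper-quartile scaling Mrpl3 stood at 0.080. With the GC and length correction, with or without the replicate block, Mrpl1 stood at -0.035, Mrpl47 at -0.027, Mrps5 at -0.094, Mrps9 at -0.75, Mrps18a at 0.14 and Mrps18b at 0.30. The cause was not tested. Of the gene results checked under each alternative, 382 kept direction and call and 68 did not. These include the replicate block and a fit without the intensity trend, which cannot change a fold change in this design. The restriction to protein-coding genes was chosen after seeing the data and gave 25 and 13. With 3 mice per group, an exact permutation test of 1 value cannot go below 0.1.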
